A study of Mus musculus with 2 samples.

Results

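The G1 cyclins and cyclin-dependent kinase (CDK) inhibitors described here are 10 genes, Ccnd1, Ccnd2, Ccnd3, Ccne1, Ccne2, Cdkn1a, Cdkn1b, Cdkn2c, Ccng1 and Mdm2, taken by name from the 27998 genes of the count table, and all 10 were found there. Their transcripts were counted in preparations of hepatocytes, the parenchymal cells of liver, with a droplet assay in which a barcode marks a droplet and a unique molecular identifier (UMI) marks a captured transcript. Both libraries came from C57BL/6 mice (C57BL/6J in the study's methods), aged 10-12 weeks per the labels and kept on a normal diet. The 0 h library was made from undamaged liver and the 48 h library from liver regrowing 48 h after partial hepatectomy (PHx), an operation that takes out the larger part of the organ. Hepatocytes were released by a 2-step collagenase perfusion, and per the study's methods each library was made from 1 mouse. With 1 library per time point no difference between time points has a replicate check, and mouse, operation, cell preparation and library cannot be told apart. No p value is therefore given, and the 95% intervals cover counting error only.

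The cell cycle leaves G1 when cyclins switch on their kinase partners. D-type cyclins (Ccnd1, Ccnd2, Ccnd3) activate CDK4 and CDK6 in response to growth signals, and E-type cyclins (Ccne1, Ccne2) activate CDK2 at the start of DNA synthesis. Cdkn1a (p21) and Cdkn1b (p27) belong to the Cip/Kip inhibitors, which bind cyclin-CDK complexes, whereas Cdkn2c (p18) is an INK4 inhibitor that binds CDK4 and CDK6 themselves. Ccng1 (cyclin G1) and Mdm2, the ubiquitin ligase that limits p53, are neither G1 cyclins nor CDK inhibitors in the strict sense. Like Cdkn1a they are textbook targets of p53, and they are described as such. Hepatocytes of the adult liver rest outside the cycle, and cyclin D1 is the classical marker of their entry into it after PHx.

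On the mm10 (GRCm38) assembly, the D-type cyclin genes lie at chr7:144929931-144939925 on the minus strand (Ccnd1, ENSMUSG00000070348), chr6:127125162-127152193 on the minus strand (Ccnd2, ENSMUSG00000000184) and chr17:47505051-47599691 on the plus strand (Ccnd3, ENSMUSG00000034165). The E-type genes lie at chr7:38097984-38107534 on the minus strand (Ccne1, ENSMUSG00000002068) and chr4:11191351-11204779 on the plus strand (Ccne2, ENSMUSG00000028212). The inhibitor genes lie at chr17:29090976-29100727 and chr6:134920401-134925513 on the plus strand (Cdkn1a, ENSMUSG00000023067, and Cdkn1b, ENSMUSG00000003031) and at chr4:109660876-109667189 on the minus strand (Cdkn2c, ENSMUSG00000028551). Ccng1 (ENSMUSG00000020326) lies at chr11:40748552-40755311 and Mdm2 (ENSMUSG00000020184) at chr10:117688875-117710758, both on the minus strand.

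RefSeq promoter windows (GRCm38.p6) were at hand for 7 of the 10 genes, with 10 windows in all, but not for Ccnd1, Ccnd2 and Ccne2. The 250 bases before each start site were searched on both strands. Stretches of 120 bases are shown for the 4 genes whose windows held the matches discussed beside the results, with matches in capitals. They are Ccne1 and Cdkn2c, both higher over 30% mt in 48 h barcodes with Mki67 or Top2a UMIs, and Cdkn1a and Ccng1 of the p53 group. These windows were chosen after the values were seen.

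Ccne1, chr7:38107491-38107610, minus strand, GC boxes (GGGCGGG) in capitals: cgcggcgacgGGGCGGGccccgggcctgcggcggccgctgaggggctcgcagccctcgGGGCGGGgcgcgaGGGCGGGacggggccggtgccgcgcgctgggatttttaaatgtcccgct

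Cdkn2c, chr4:109666757-109666876, minus strand, GC boxes and an E2F core (TTCCCGC) in capitals: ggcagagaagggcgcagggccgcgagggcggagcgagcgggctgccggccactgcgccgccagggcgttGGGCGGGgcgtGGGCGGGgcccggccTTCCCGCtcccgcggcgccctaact

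Cdkn1a, chr17:29090859-29090978, plus strand, before the upstream start site, a p53-type pair of decamers in capitals: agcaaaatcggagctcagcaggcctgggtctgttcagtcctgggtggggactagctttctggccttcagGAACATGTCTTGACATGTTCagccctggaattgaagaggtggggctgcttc

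Ccng1, chr11:40755377-40755496, minus strand, a p53-type pair of decamers in capitals: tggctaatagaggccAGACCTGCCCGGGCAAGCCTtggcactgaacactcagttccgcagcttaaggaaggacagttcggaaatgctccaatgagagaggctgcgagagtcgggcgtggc

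A pair of adjoining p53 decamers without a spacer, with at most 1 mismatch in the 20 bases, was present in 25 of all 32851 windows (0.0761%). Among them were the Cdkn1a and Ccng1 windows printed above. The motif and its allowance of 1 mismatch were added after these windows were seen, so the share does not measure how unusual the 2 matches are. The window of Mdm2, also a p53 target, held no such pair. In the Cdkn1a window the match covered the bases from -51 to -32 before the start site, and in the Ccng1 window those from -195 to -176. The GC box, the letters bound by SP1, was present in 23.4% of all windows and in those of Ccnd3, Ccne1, Cdkn1a, Cdkn2c and Mdm2. An E2F core (the letters TTGGCGC, or else TTGCCGC, or else TTCGCGC, or else TTCCCGC) was present in 7.89% of all windows and, among these genes, only in 1 window of Cdkn2c, from -25 to -19. The CRE core TGACG (17.8% of all windows) was found in both Ccnd3 windows, and AP-1 (TGAGTCA, 4.46%) and the TCF core CTTTGA (13.8%) in none of the 10. A further GC box of Ccne1 lies before the stretch shown. Within the 10 windows no match overlapped another. A match describes letters and was not tested as a site.

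The libraries differed strongly in depth. The 0 h library held 59202 barcodes with 96118593 UMIs and the 48 h library 1586 barcodes with 18198719 UMIs, and 148 barcode sequences were present in both. Barcodes were divided by their share of mitochondrial (mt) UMIs after barcodes rich in markers of another cell type had been set aside. Over 30% mt there were 3781 barcodes at 0 h (median 1226 non-mt UMIs) and 763 at 48 h (median 4411). Under 2% mt there were 52306 at 0 h (median 1412) and 513 at 48 h (median 5269). Marker-defined non-hepatocyte barcodes numbered 763 at 0 h (median 2263) and 111 at 48 h (median 5923). Levels are given as CPM (UMIs per 1000000 non-mt UMIs), summed over the barcodes of a set. All 10 hepatocyte markers were detected in each of these sets, the non-hepatocyte barcodes included, where they made up 59587 CPM at 0 h and 29848 CPM at 48 h against 78391 to 110608 CPM over 30% and under 2% mt. Hepatocyte transcripts were thus counted in every set, and the part of free RNA in the values below was not tested. The 0 h library holds far more barcodes than the study kept after its own filtering, and most of them are under 2% mt. How many of these hold a cell and how many only free RNA is not known here. The 0 h levels and shares under 2% mt are therefore those of barcodes, not of hepatocytes. The median mt share under 2% mt was 0.459% at 48 h and 0.528% at 0 h. How many of the 48 h barcodes under 2% mt hold a cell is not known either, and the same limit applies to them. Over 30% and under 2% mt the macrophage, endothelial and stromal marker lists summed to 15.6 to 70.4 CPM each. Endothelial markers went from 28.9 CPM at 0 h to 70.4 CPM at 48 h over 30% mt and from 23.4 to 19.1 CPM under 2% mt, and the part of such barcodes in the differences between time points was not tested.

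Ccnd1 stood at 4.03 CPM (23 UMIs) at 0 h and at 194 CPM (989 UMIs) at 48 h in barcodes over 30% mt, a 48.2-fold difference (95% interval 31.9 to 76.4). Under 2% mt it went from 5.59 CPM (437 UMIs) to 134 CPM (413 UMIs), 23.9-fold (20.9 to 27.4). In non-hepatocyte barcodes, where its 0 h level was already 117 CPM (227 UMIs), it reached 335 CPM (253 UMIs), 2.87-fold higher (2.39 to 3.45). Cyclin D1 transcripts were thus scarce in both mt-defined sets at 0 h and far more frequent there at 48 h.

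Ccnd2 behaved otherwise. It stood at 1.05 CPM at 0 h (6 UMIs) and 3.73 CPM at 48 h (19 UMIs) over 30% mt, and its ratio of 3.55 had an interval from 1.36 to 10.9. Under 2% mt it was 1.45 CPM (113 UMIs) and 1.30 CPM (4 UMIs), and the sign of this difference turned with other mt limits and with equal weights per barcode. Non-hepatocyte barcodes held 231 CPM at 0 h and 281 CPM at 48 h, a ratio of 1.22 (1.03 to 1.44) that turned to the other side of 1 when the 0 h library was limited to its deepest barcodes. Ccnd3 was higher at 48 h in every set, at 29.2 against 16.6 CPM over 30% mt (1.76-fold, 1.35 to 2.30), 22.7 against 14.6 CPM under 2% mt (1.56-fold, 1.20 to 1.98) and 129.7 against 44.7 CPM in non-hepatocyte barcodes (2.90-fold, 2.15 to 3.92). Of the D-type cyclins, then, Ccnd1 alone passed 2-fold with an interval above it over 30% and under 2% mt. Ccnd2 did not pass 3.73 CPM in these sets.

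**Figure D1:**
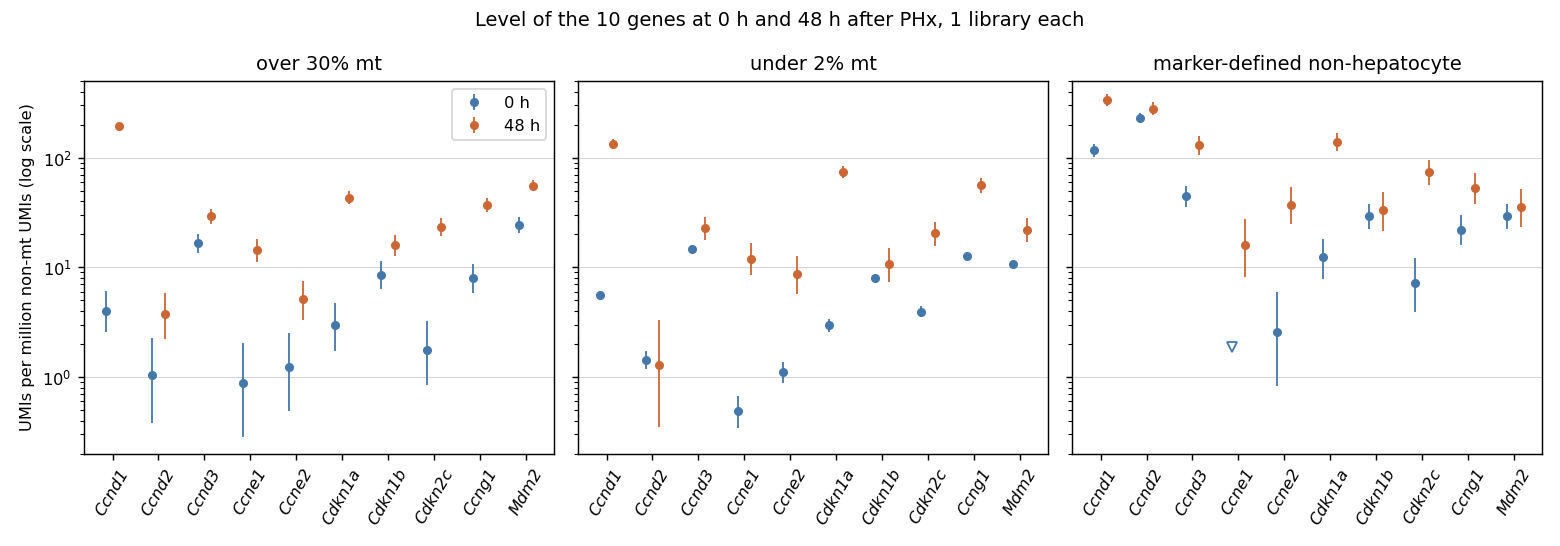
Level of each of the 10 genes (CPM, log scale) at 0 h (blue) and 48 h (orange) in 3 sets of barcodes. Points are sums over 1 library with exact Poisson 95% intervals, and the open triangle is the upper bound for Ccne1, which had 0 UMIs in non-hepatocyte barcodes at 0 h; Ccnd1 rose from 4.03 to 194 CPM over 30% mt, while Ccnd2 stood at 231 and 281 CPM in non-hepatocyte barcodes.

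The E-type cyclins were scarce at 0 h. Ccne1 had 5 UMIs over 30% mt (0.875 CPM) and 38 UMIs under 2% mt (0.486 CPM), and it rose to 14.3 CPM (73 UMIs) and 12.0 CPM (37 UMIs) at 48 h, ratios of 16.4 (6.70 to 51.9) and 24.7 (15.2 to 39.8). In non-hepatocyte barcodes it had 0 UMIs at 0 h and 12 at 48 h (15.9 CPM). With the 0 set to a floor of 3 UMIs this was 10.3-fold higher, and the counting interval began at 7.16-fold. With under 20 UMIs in all, Ccne1 stayed out of the counts below for this set. Ccne2 went from 1.23 to 5.10 CPM over 30% mt (7 and 26 UMIs, 4.16-fold, 1.76 to 11.4). Under 2% mt it went from 1.11 to 8.75 CPM (87 and 27 UMIs, 7.86-fold, 4.90 to 12.2), and in non-hepatocyte barcodes from 2.57 to 37.1 CPM (5 and 28 UMIs). Both E-type cyclins were therefore higher at 48 h wherever they were counted, from few molecules.

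The inhibitors split into a pair that rose and one that moved little. Cdkn1a, the p53-induced inhibitor whose upstream window is printed above, went from 2.98 to 43.4 CPM over 30% mt (17 and 221 UMIs, 14.6-fold, 8.90 to 25.5). Under 2% mt it went from 2.97 to 74.2 CPM (232 and 229 UMIs, 25.0-fold, 20.7 to 30.1), and in non-hepatocyte barcodes from 12.3 to 140.3 CPM (24 and 106 UMIs, 11.4-fold, 7.26 to 18.5). Cdkn2c went from 1.75 to 23.3 CPM over 30% mt (10 and 119 UMIs, 13.3-fold, 7.01 to 28.5). The other sets gave 3.94 and 20.4 CPM under 2% mt (308 and 63 UMIs, 5.18-fold, 3.89 to 6.81) and 7.19 and 74.1 CPM in non-hepatocyte barcodes (14 and 56 UMIs, 10.3-fold, 5.66 to 20.1). Cdkn1b, which holds resting cells out of the cycle and is controlled largely through protein turnover, differed least of the 3 inhibitors. Its levels were 8.58 and 15.9 CPM over 30% mt (49 and 81 UMIs, 1.85-fold, 1.28 to 2.70) and 7.99 and 10.7 CPM under 2% mt (1.34-fold, 0.914 to 1.90). In non-hepatocyte barcodes it stood at 29.3 and 33.1 CPM (57 and 25 UMIs), and the sign of that difference turned under TMM scaling, which assumes that most genes do not differ, and under 2 other alternatives. The inhibitors Cdkn1a and Cdkn2c were thus higher at 48 h in the same sets in which the E-type cyclins and Ccnd1 were higher.

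Ccng1, whose window carries the other p53-type match, went from 8.05 to 36.9 CPM over 30% mt (46 and 188 UMIs, 4.58-fold, 3.30 to 6.47). It went from 12.7 to 56.1 CPM under 2% mt (989 and 173 UMIs, 4.43-fold, 3.75 to 5.21) and from 22.1 to 52.9 CPM in non-hepatocyte barcodes (43 and 40 UMIs, 2.40-fold, 1.52 to 3.78). Mdm2 went from 24.3 to 55.7 CPM over 30% mt (139 and 284 UMIs, 2.29-fold, 1.86 to 2.83) and from 10.8 to 22.04 CPM under 2% mt (843 and 68 UMIs, 2.04-fold, 1.57 to 2.62). In non-hepatocyte barcodes it stood at 29.3 and 35.7 CPM (57 and 27 UMIs, 1.22-fold, 0.742 to 1.96). The 3 p53 targets among the 10 genes therefore had higher levels at 48 h in both mt-defined sets, by unequal amounts.

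Over 30% mt, 8 of the 10 genes were at least 2-fold higher at 48 h and 0 were 2-fold lower, where 32.2% of all 10174 genes with at least 20 UMIs were at least 2-fold higher and 5.61% lower. The genes' median log2 ratio was 2.13 and that of all genes 0.57, and TMM scaling took the latter to 0.00, so that the ratios are to be read against a shift of that size. Ccnd3 and Cdkn1b, with log2 ratios of 0.81 and 0.89, lay near it. Mdm2, at 1.20, was no longer past 2-fold with TMM scaling (0.63) or with all UMIs as the total (0.93), and Ccnd2, at 1.83, was not with the mean of single-barcode CPM (0.86) or the deepest barcodes at 0 h (0.63). Under 2% mt, 7 of 10 were at least 2-fold higher and 0 lower, against 25.4% and 19.2% of all genes, with medians of 2.26 and 0.12. Mdm2, with a log2 ratio of 1.03 there, was at 0.80 under the alternative that lowered it most and then not past 2-fold. In non-hepatocyte barcodes 6 of 9 were at least 2-fold higher and 0 were lower, against 20.4% and 12.7%, with medians of 1.52 and 0.22. In the 2277 and 199 barcodes between these mt limits, 7 of 10 were at least 2-fold higher against 27.5% of all genes, and Ccnd1 went from 26 to 611 UMIs, 39.9-fold (27.0 to 61.6).

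**Figure D2:**
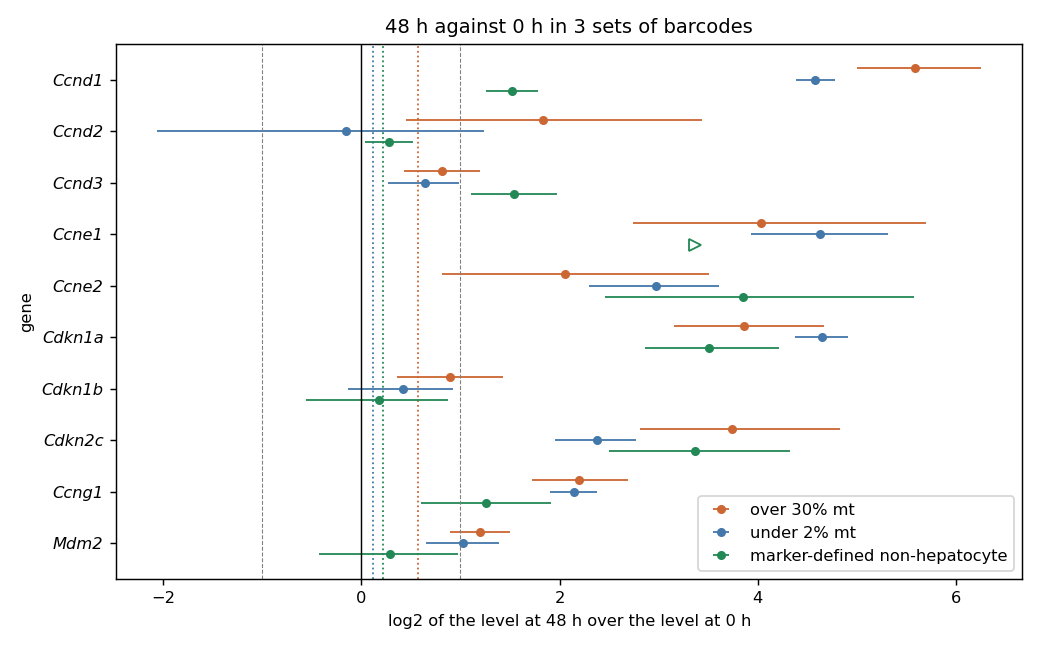
Log2 of the 48 h level over the 0 h level for the 10 genes in barcodes over 30% mt (orange), under 2% mt (blue) and non-hepatocyte barcodes (green), with exact conditional 95% counting intervals. Dotted lines are the medians of all genes tested and dashed lines mark 2-fold. The open triangle is Ccne1 in non-hepatocyte barcodes, with its 0 UMIs at 0 h set to 3. Ccnd1, Ccne1, Cdkn1a and Cdkn2c lie farthest to the right over 30% mt.

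Neighbouring genes of the pathway were counted from lists chosen with earlier results of these data known. Of 23 genes of the G1/S machinery, 18 could be counted over 30% mt, of which 9 were at least 2-fold higher and 0 lower at 48 h, where 32.2% and 5.61% of all genes were, with a median log2 ratio of 0.85 against 0.57. Ccna2, the cyclin of S phase, had 0 UMIs at 0 h and 139 at 48 h (27.3 CPM), and E2f2 and Cdc25a, the phosphatase that removes inhibitory phosphates from CDK2, went from 0.875 to 9.22 CPM and from 1.40 to 10.6 CPM. The pocket protein gene Rbl2 had the lowest ratio, at 11.03 CPM at 0 h and 9.22 CPM at 48 h. Of 18 genes for the turnover and upstream control of these proteins, 17 could be counted, with 11 higher and 1 lower against the same shares of all genes and a median log2 ratio of 1.37. Foxm1, a transcription factor of dividing cells, went from 0 UMIs to 14.5 CPM, Fos from 2.80 to 44.1 CPM and Klf6 from 2.28 to 20.4 CPM, whereas Myc, a growth-induced factor upstream of D-type cyclins, fell from 10.3 to 4.32 CPM. Of 26 p53 targets and regulators, 25 could be counted, with 12 higher and 0 lower by 2-fold against 32.2% and 5.61% of all genes, and a median log2 ratio of 0.73 against 0.57. Their intervals lay above 0 for 15 genes and below 0 for 2. The share of all genes with such intervals was not computed, and the shift of 0.57 over all genes is not taken out of these counts. Btg2, an antiproliferative p53 target, went from 16.5 to 79.5 CPM, Eda2r, a receptor of the TNF family, from 0.175 to 5.49 CPM (1 and 28 UMIs) and Phlda3 from 0 UMIs to 7.65 CPM. Among the lowest ratios were those of Ccng2, at 9.45 and 5.69 CPM, and the death receptor gene Fas, at 27.8 and 17.3 CPM. The single-gene values above are those over 30% mt. Under 2% mt 9 of 19, 6 of 17 and 10 of 25 genes of the lists, in this order, were at least 2-fold higher. There 1, 3 and 3 were lower, against 25.4% higher and 19.2% lower of all genes. The median log2 ratios under 2% mt were 0.54, 0.05 and 0.46 against 0.12 for all genes. In non-hepatocyte barcodes 10 of 16, 5 of 17 and 4 of 21 were higher and 0, 0 and 2 lower, against 20.4% and 12.7%.

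How many barcodes carried each transcript depends on depth, so each barcode was also thinned to 1000 non-mt UMIs, which left out 1323 of the 3781 barcodes over 30% mt at 0 h and 4 of the 763 at 48 h. Ccnd1 was then present in 16.3% of barcodes over 30% mt at 48 h (124 of 759, exact interval 13.8% to 19.2%) and in 0.366% at 0 h (9 of 2458, 0.168% to 0.694%). Under 2% mt the shares were 11.1% (57 of 513) and 0.539% (282 of 52306). Unthinned, Ccnd1 was present in 54.0% of barcodes over 30% mt at 48 h and in 0.608% at 0 h. Cdkn1a was present in 4.22% of thinned barcodes over 30% mt and 7.02% under 2% mt at 48 h, from 0.366% and 0.291% at 0 h. Mdm2 was present in 5.14% over 30% mt but 1.56% under 2% mt at 48 h, from 2.28% and 1.07%. No set known to lack these transcripts was at hand, so how much of a share is free RNA was not tested. The 0 h shares of the same genes are given beside those of 48 h. They come from another library and cannot show how much of a 48 h share is free RNA.

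At 48 h Ccnd1 was spread over many barcodes. Over 30% mt, 351 barcodes had 0 Ccnd1 UMIs, 190 had 1, 90 had 2 and 132 had 3 or more, and the 10 highest barcodes held 10.2% of its UMIs. At 0 h each of its 23 UMIs lay in a barcode of its own. Cdkn1a had 3 or more UMIs in 19 barcodes and its 10 highest held 19.9%, and for Cdkn2c these values were 10 barcodes and 28.6%. The scarce Ccnd2 and Ccne2 had 68.4% of 19 and 65.4% of 26 UMIs in 10 barcodes, and 5 of the Ccne2 UMIs came from 1 barcode. The highest count in 1 barcode was 13 for Ccnd1 and 7 for Cdkn1a and Mdm2.

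Barcodes over 30% mt were next compared with those under 2% mt at the same time. At 48 h, 2 of the 10 genes differed by more than 2-fold, against 43.9% of all 9817 genes. Mdm2 stood at 55.7 CPM over 30% mt and 22.04 CPM under 2% mt, 2.53-fold higher (1.93 to 3.35), and Ccnd2, at 19 and 4 UMIs, had a ratio of 2.88 with an interval from 0.956 to 11.6. Cdkn1a and Ccng1 lay on the other side, at 43.4 against 74.2 CPM (0.584-fold, 0.483 to 0.706) and 36.9 against 56.1 CPM (0.658-fold, 0.532 to 0.814). The 3 p53 targets therefore did not differ in 1 direction between the mt-defined sets. The median over all genes was 0.67 on the log2 scale, -0.45 with all UMIs as the total and 0.07 with TMM scaling. With these totals Ccnd1, 194 against 134 CPM and 1.45-fold higher in the main values, had log2 ratios of 0.54, -0.59 and -0.07, so that its direction turned. Ccnd3, Ccne1, Cdkn1b and Cdkn2c turned likewise under both, while Mdm2 and Ccnd2 stayed higher and Cdkn1a, Ccng1 and Ccne2 stayed lower over 30% mt. The genes past 2-fold changed, however. With all UMIs as the total Mdm2 and Ccnd2 fell short of 2-fold, at log2 ratios of 0.21 and 0.40, and Cdkn1a, Ccng1 and Ccne2 passed it, at -1.90, -1.73 and -1.91. With TMM scaling these 3 genes were past 2-fold as well and Mdm2 and Ccnd2 were not.

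At 0 h, Mdm2 was again higher over 30% mt, at 24.3 against 10.8 CPM (2.25-fold, 1.87 to 2.70), with 26.1% of all 11657 genes past 2-fold in either direction. Cdkn2c, at 10 and 308 UMIs, was lower at 1.75 against 3.94 CPM (0.444-fold, 0.211 to 0.828). With all UMIs as the total the Mdm2 log2 ratio was 0.31 at 0 h, under 2-fold as at 48 h, so that the size of its difference rests on the total used. Malat1, a nuclear RNA, was also higher over 30% mt in both as CPM, at 4655 against 2001 CPM at 0 h and 2818 against 1950 CPM at 48 h. The median log2 ratio of all genes was 0.08 at 0 h and 0.67 at 48 h. Malat1 was not recomputed with the other totals, but a change of total shifts all genes of a comparison alike. Ccnd1, with a difference of like size at 48 h (194 against 134 CPM), turned its direction under them. The direction of the Malat1 difference at 48 h therefore rests on the total used. The part of Malat1 in the Mdm2 difference was not tested.

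**Figure D3:**
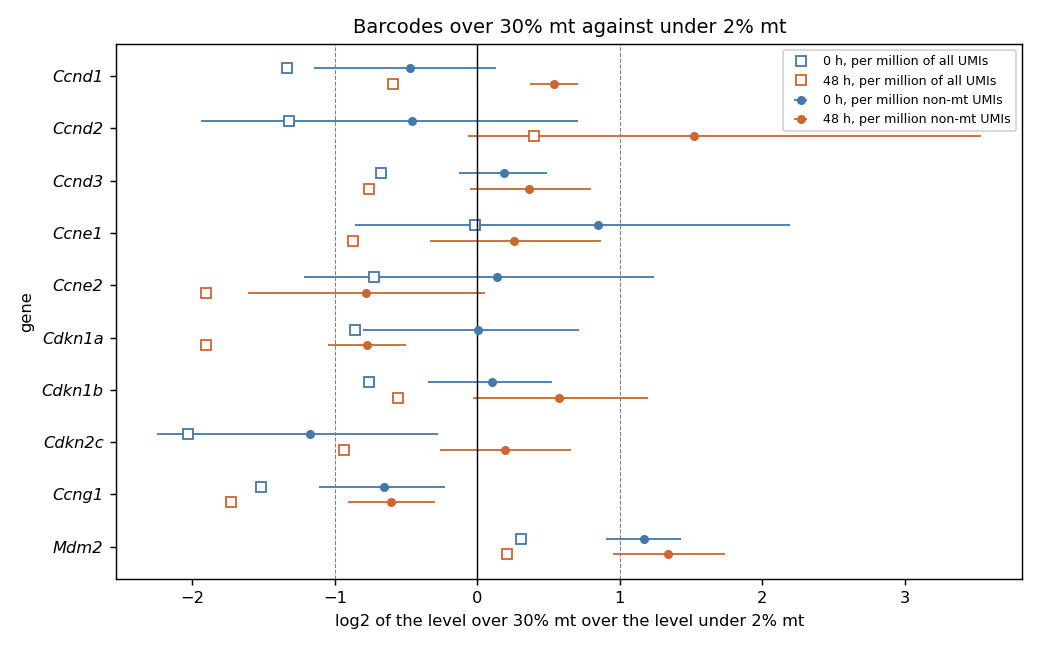
Log2 of the level in barcodes over 30% mt over that in barcodes under 2% mt for the 10 genes at 0 h (blue) and 48 h (orange), as CPM (filled, with 95% counting intervals) and with all UMIs as the total (open squares). Dashed lines mark 2-fold; only Mdm2 lies above 0 with both totals at both times, and 5 genes cross 0 at 48 h when the total is changed.

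Within the 48 h library, barcodes with at least 1 UMI of Mki67 or Top2a, genes expressed in dividing cells, were compared with the rest. Over 30% mt these were 226 and 537 barcodes, with median depths of 6942.5 and 3796 non-mt UMIs, so that deeper barcodes were more often in the first set. Past 2-fold were 2 of 9 genes, both higher, where 4.5% of all 9312 genes were at least 2-fold higher. Ccne1 stood at 22.9 CPM with and 8.54 CPM without these UMIs (47 and 26 UMIs, 2.68-fold, 1.63 to 4.51), and Cdkn2c at 38.0 and 13.5 CPM (78 and 41 UMIs, 2.82-fold, 1.91 to 4.22). The GC boxes printed above lie in windows of both genes, as others do in those of Ccnd3, Cdkn1a and Mdm2. Ccnd3 was 1.503-fold higher (36.5 and 24.3 CPM, 1.08 to 2.10), and Ccnd1 was slightly lower at 178 and 205 CPM (0.871-fold, 0.763 to 0.993). Cdkn1a stood at 49.2 and 39.4 CPM (1.25-fold, 0.948 to 1.64), Ccng1 at 38.0 and 36.1 CPM and Mdm2 at 58.5 and 53.9 CPM. The p53 targets thus had intervals that included equal levels with and without these transcripts. Endothelial markers summed to 104 CPM with and 48.0 CPM without Mki67 or Top2a UMIs, and stromal markers to 32.6 and 27.9 CPM. The part of such markers in these ratios was not tested.

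The result for Cdkn2c came from the barcodes richest in proliferation transcripts. Its level was 13.5 CPM in the 537 barcodes with 0 Mki67 and Top2a UMIs, 17.4 in the 113 with 1, 12.5 in the 61 with 2 or 3, and 73.4 in the 52 with 4 or more. Between the ends this is a 5.45-fold difference (3.60 to 8.33), with 59 of its 119 UMIs in those 52 barcodes. Cdkn1b, Ccne1 and Ccnd3 also ended higher, at 31.1 against 13.1 CPM (2.37-fold, 1.38 to 3.998), 33.6 against 8.54 CPM (3.93-fold, 2.21 to 7.01) and 46.0 against 24.3 CPM (1.89-fold, 1.24 to 2.85). Ccnd1 ended lower, at 122 against 205 CPM (0.596-fold, 0.476 to 0.738), and Cdkn1a higher, at 65.9 against 39.4 CPM (1.67-fold, 1.19 to 2.33). Between the ends 3 of 8 genes were past 2-fold, where 6.94% of all 8758 genes were at least 2-fold higher. Median depth rose over the same classes, from 3796 to 4572, 7274 and 14349.5 non-mt UMIs, and its part in these differences was not tested. These classes were set with the first comparison known. When barcodes were sorted after thinning, Ccne1 kept a log2 ratio of 1.63 but that of Cdkn2c went from 1.496 to 0.78.

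**Figure D4:**
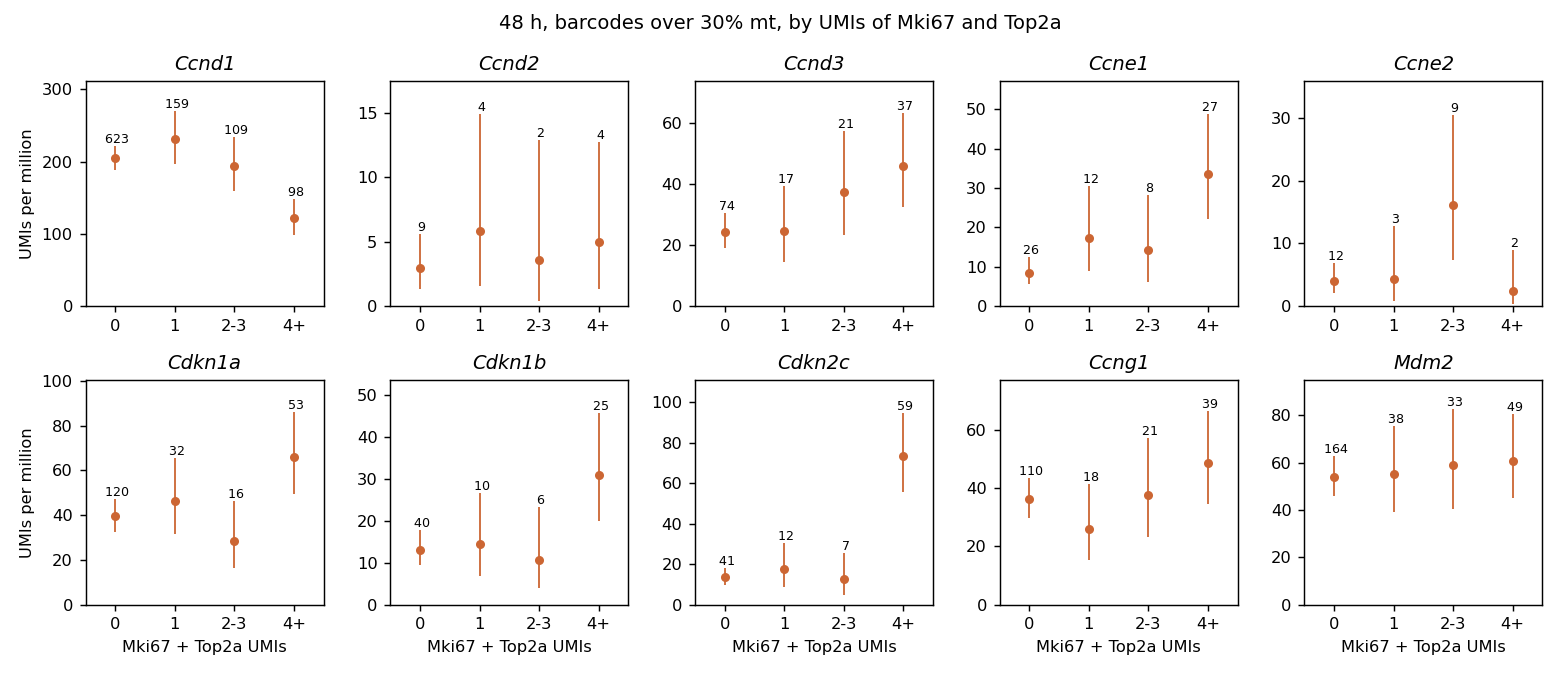
Level of each gene (CPM) at 48 h over 30% mt in barcodes with 0, 1, 2-3 and 4 or more UMIs of Mki67 and Top2a together (537, 113, 61 and 52 barcodes). Bars are exact Poisson 95% intervals and the numbers above them are the UMIs counted; Cdkn2c reaches 73.4 CPM in the last class and is below 18 CPM in the others, and Ccnd1 is lowest in the last class at 122 CPM.

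Under 2% mt the same comparison (181 and 332 barcodes, median depths of 5611 and 5186) had 0 of 9 genes past 2-fold, where 3.5% of all 6710 genes were in either direction. Ccne1 stood at 12.3 and 11.8 CPM (14 and 23 UMIs, 1.04-fold, 0.496 to 2.11) and Cdkn2c at 25.5 and 17.5 CPM (29 and 34 UMIs, 1.46-fold, 0.858 to 2.47). The Cdkn2c intervals of the 2 mt-defined sets overlap, so a difference between them was not shown. In non-hepatocyte barcodes at 48 h, Cdkn2c was at 93.0 CPM in the 77 barcodes with (52 UMIs) and 20.4 CPM in the 34 without these UMIs (4 UMIs), and Ccne2 at 44.7 CPM (25 UMIs) and 15.3 CPM (3 UMIs). Dendritic markers summed to 189.6 CPM with and 1512 CPM without these UMIs and cholangiocyte markers to 163 and 0 CPM, and their part in these differences was not tested. Ccnd1, Ccnd2 and Cdkn1a were at 317 and 387 CPM, 284 and 270 CPM, and 139.5 and 143 CPM.

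The higher levels at 48 h were also found in barcodes without Mki67 or Top2a UMIs. With only these 537 barcodes over 30% mt, which did hold other transcripts of dividing cells (37 Ccna2 and 11 Foxm1 UMIs), Ccnd1 was 50.9-fold higher than at 0 h (33.6 to 80.8), Cdkn1a 13.3-fold (7.94 to 23.5), Ccne1 9.76-fold (3.69 to 32.6) and Cdkn2c 7.70-fold (3.79 to 17.2). In this comparison 6 of 8 genes were at least 2-fold higher, against 29.1% of all genes. Ccnd1 and Cdkn1a, a cyclin and an inhibitor that act on opposite sides of G1 exit, did not exclude each other between barcodes. Over 30% mt at 48 h, Cdkn1a stood at 43.1 CPM in the 412 barcodes with Ccnd1 UMIs (154 UMIs) and 43.9 CPM in the 351 without (67 UMIs), a ratio of 0.981 (0.732 to 1.33), and past 2-fold were 0 of 8 other genes against 2.85% of all genes. Mki67 was at 68.6 and 89.2 CPM in the same barcodes (0.769-fold, 0.621 to 0.955). In the 144 barcodes with Cdkn1a UMIs, Ccne1 was 2.11-fold higher than in the 619 without (34 and 39 UMIs, 1.29 to 3.42) and Ccne2 lower at 3 and 23 UMIs (0.315-fold, 0.0606 to 1.04). These were the only ones of 8 other genes past 2-fold, against 3.19% of all genes in either direction. Barcodes with Ccnd1 or Cdkn1a UMIs were deeper on average than those without. These splits were not repeated after thinning, and the part of depth in these ratios was not tested.

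Non-hepatocyte barcodes were also compared with those over 30% mt. At 48 h, 6 of 10 genes were past 2-fold, all higher, against 32.3% of all 10326 genes that were at least 2-fold higher. Ccnd2 was 75.3-fold higher (281 against 3.73 CPM, 47.0 to 128), Ccne2 7.26-fold (4.11 to 12.9) and Ccnd3 4.44-fold (3.40 to 5.76). The inhibitors followed, with Cdkn1a at 3.24-fold (2.54 to 4.10), Cdkn2c at 3.17-fold (2.27 to 4.40) and Cdkn1b at 2.08-fold (1.27 to 3.30), while Ccnd1 was 1.73-fold higher (335 against 194 CPM, 1.497 to 1.98) and Mdm2 lower at 35.7 against 55.7 CPM, a direction that turned with all UMIs as the total. At 0 h, 7 of 8 genes were at least 2-fold higher against 41.6% of all genes, and the ratio was 29.0 for Ccnd1 (18.8 to 46.6) and 220 for Ccnd2 (100.1 to 602). In the 0 h library, then, Ccnd1 as well as Ccnd2 stood far higher in non-hepatocyte barcodes, and at 48 h the ratio was much smaller for Ccnd1. By place, 76.0% of Ccnd2 UMIs at 0 h and 87.2% at 48 h lay in non-hepatocyte barcodes, which held 2.16% and 6.59% of all non-mt UMIs. For Ccnd1 the shares were 31.8% and 11.2%.

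By marker class, Ccnd2 stood at 374 CPM at 0 h and 369 CPM at 48 h in barcodes rich in endothelial markers (221 and 38 barcodes) and at 391 and 321 CPM in those rich in stromal markers (155 and 39). In those rich in macrophage markers (219 and 22) it was lower, at 62.1 and 124 CPM. Ccnd1 went from 169 to 415 CPM in endothelial, from 137 to 291 CPM in stromal and from 81.7 to 279 CPM in macrophage marker-rich barcodes. Cdkn1a went from 29.4 to 213 CPM (16 and 56 UMIs), from 9.42 to 136 CPM (4 and 36 UMIs) and from 5.33 to 85.4 CPM (3 and 11 UMIs). The rise of Ccnd1 and Cdkn1a was therefore found in each of these marker classes, for Cdkn1a in macrophage marker-rich barcodes from few UMIs. Hepatocyte markers summed to 57654 to 62074 CPM at 0 h and 27359 to 33102 CPM at 48 h in these classes. The part of hepatocyte RNA in these rises was not tested. The marker rule was set against each library's own share, so its strictness can differ between the libraries. The classes overlap, since a barcode was placed by its strongest enrichment only. Of the non-hepatocyte barcodes, 324 at 0 h and 39 at 48 h met the rule for 2 or more classes. Stromal marker-rich barcodes at 0 h held 4039 CPM of endothelial beside 7063 CPM of stromal markers. The makeup of the non-hepatocyte set differed between the libraries: barcodes rich in macrophage markers were 28.7% of it at 0 h and 19.8% at 48 h, and those rich in stromal markers 20.3% and 35.1%.

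**Figure D5:**
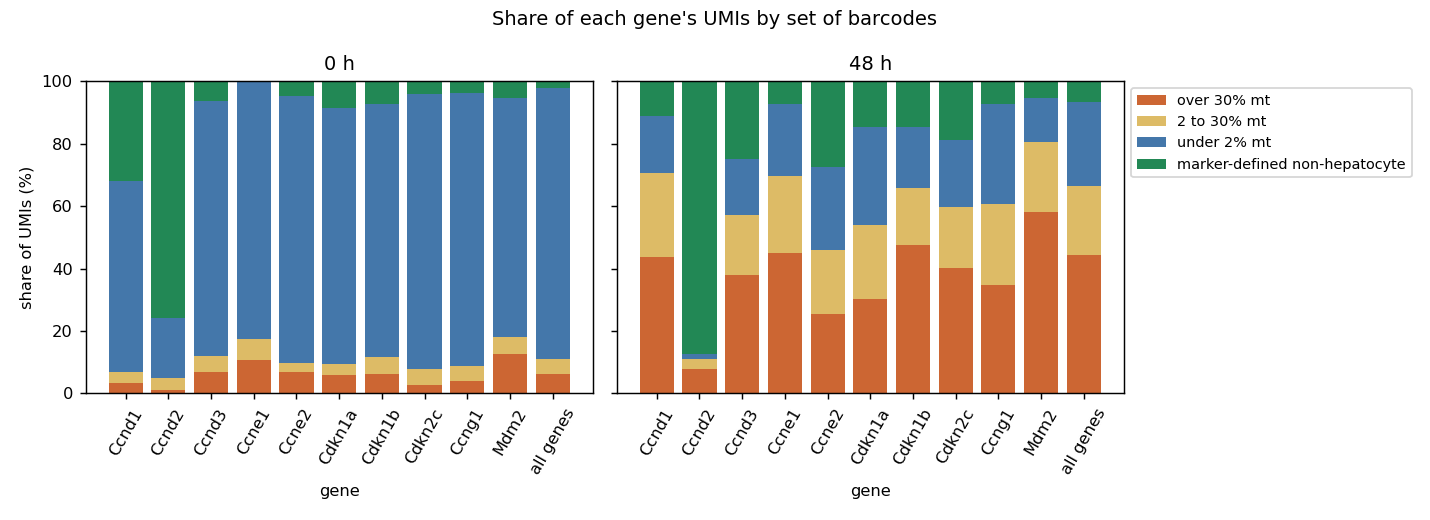
Share (%) of each gene's UMIs that lay in barcodes over 30% mt, at 2 to 30% mt, under 2% mt and in non-hepatocyte barcodes, at 0 h and 48 h. The last bar gives the share of all non-mt UMIs; Ccnd2 stands apart with 76.0% and 87.2% of its UMIs in non-hepatocyte barcodes.

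Barcodes over 30% mt were also sorted by the share of perivenous among perivenous and periportal marker UMIs, since hepatocytes differ along the lobule, and divided into 3 ranges of about equal size. At 48 h Ccnd1 stood at 263 CPM in the most perivenous range (252 barcodes, 328 UMIs) and 134 CPM in the most periportal one (254 barcodes, 302 UMIs), 1.97-fold higher (1.68 to 2.31). Ccnd3 went the other way, at 22.5 against 35.9 CPM (0.626-fold, 0.392 to 0.973). Past 2-fold were 0 of 8 genes, against 6.73% of all genes. Barcodes of the most periportal range were deeper on average, and the part of depth in these ratios was not tested. At 0 h Ccnd1 had 7 and 4 UMIs in these ranges, too few to compare. They are ranges of a score and not cell types, and 145 and 52 of the 760 barcodes lay within 5 percentage points of the lower and upper limits.

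Over the 8 sets formed by 4 kinds of barcode in 2 libraries, the genes most like Ccnd1 among 7847 genes were Ccm2 (Pearson r of log2(CPM + 1) 0.998), Arhgap11a (0.995), Ankrd40 (0.993), Ly6d (0.991) and Otub1 (0.988). Those most like Cdkn1a were Arpc5l (0.995), Hmmr (0.994), H2afx (0.992), Phf5a (0.992) and Hells (0.991). The sets share libraries and depth, so these values only describe the pattern over 8 points.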

How the data were processed

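Libraries made with 10x Genomics Single Cell 3′ v2 chemistry, 1 per time point, were used. The submitters' processing notes name Cell Ranger and the mm10 build. The deposited values are raw UMI counts per gene and barcode, with 59202 and 1586 barcodes. The authors state that they removed cells with high mt content and possible doublets. In these files 6.39% and 48.1% of barcodes are over 30% mt, and the authors' mt limit is not given in the sources used here. No doublet caller was run, and 324 and 39 barcodes met the rule below for at least 2 cell classes.

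Barcodes with at least 500 non-mt UMIs were kept. A barcode was called non-hepatocyte when at least 3 markers of 1 of 9 other cell classes were present with at least 5 UMIs and 10 times the library share. Of the marker genes listed, 4 had no entry. The others were divided at 2% and 30% mt UMIs. UMIs were summed per set and divided by the non-mt total. Genes with at least 20 UMIs over both sets entered a comparison, and 2-fold was the limit. Intervals are exact (Poisson for levels, conditional binomial for ratios, Clopper-Pearson for shares). Alternatives changed the mt limits, total, scaling (edgeR 4.0.16 TMM), filters, depth and the Mki67 and Top2a rule. Code was tested on simulated data. Python 3.11.15 with numpy 2.4.6, scipy 1.17.1, pandas 2.3.3 and matplotlib 3.10.9, and R 4.3.3, were used.

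The named genes are the 10 members, Mki67 and Top2a, the 3 highest and 3 lowest ratios of each pathway list over 30% mt (of which some are given) and the 5 genes most like Ccnd1 and Cdkn1a. Malat1 was added after its values were seen. Members, lists, marker rule and comparisons were chosen with earlier results of these data known. Gene coordinates are from GENCODE M21 and promoter windows from RefSeq. The p53 motif and its allowance of 1 mismatch were added after the windows were seen.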

Additional observations from a re-analysis of the deposited data

How the results depend on the processing

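Each comparison was repeated under the alternatives for the mt limits, total, scaling, filters, depth and marker rule, and without the barcodes present in both libraries, which was added after the data were seen. Of the counts of genes past 2-fold and the median share, 89 recomputed values stayed within 1.5 times and 9 moved. Over 30% against under 2% mt, the count of 2 genes became 1 at 48 h with the mean of single-barcode CPM, and at 0 h it became 1 with an upper mt limit of 20% and 4 with all UMIs as the total. With against without Mki67 or Top2a UMIs over 30% mt, the count of 2 became 1 with an upper mt limit of 50%, 1 with the mean of single-barcode CPM and 1 when sets were called after thinning, Cdkn2c being the gene lost each time. Under 2% mt the count of 0 became 2 when sets were called after thinning. The median share of barcodes with a UMI over the 10 genes, at 48 h over 30% mt, was 1.98% at 1000 UMIs, 4.78% at 2000 and 13.8% unthinned. The cause was not tested, apart from depth in the last case. Of single ratios 847 kept within their counting interval and 74 moved, and no gene past 2-fold turned its direction. No paired analysis was possible because each time point has 1 library. Few molecules limit Ccnd2, Ccne1 and Ccne2, with 5 to 7 UMIs each over 30% mt at 0 h.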
